A study of Homo sapiens with 6 samples.

Results

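Mitochondria import the iron, copper, glycine, glutathione and heme precursors used in their matrix through dedicated carriers of their membranes. The transcripts of 9 such transporters were examined in OCI-AML5 cells, chosen as a list of gene symbols and matched by symbol to 9 of the 60609 Ensembl genes listed in the deposited files. *SLC25A37* and *SLC25A28* encode the iron importers mitoferrin 1 and mitoferrin 2, *SLC25A38* encodes a glycine carrier needed for heme synthesis, *SLC25A39* a glutathione importer, and *SLC25A3* the phosphate carrier that also brings copper into the matrix. *ABCB6*, *ABCB8* and *ABCB10* encode transporters of the ATP-binding cassette (ABC) family, and *TMEM14C* encodes an inner membrane protein that takes part in the import of protoporphyrinogen, a late precursor of heme.

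Heme synthesis begins and ends in the matrix, with its middle steps in the cytosol, so that both glycine and iron have to enter and porphyrins have to cross the mitochondrial membranes. A copper pool of the matrix serves cytochrome c oxidase, whose assembly depends on the metal. Several of these carriers, mitoferrin 1, *SLC25A38*, *ABCB10* and *TMEM14C* among them, are best known from red cell precursors, where heme production is highest.

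OCI-AML5 is a human acute myeloid leukemia line, and all 6 libraries came from this single line grown in medium supplemented with GM-CSF. Cells were exposed for 24 hours to 1 µM S767, a small molecule whose action on cellular metals the study examined, or to the solvent DMSO, with 3 libraries in each group. The polyadenylated RNA libraries held 149994700 to 258029564 reverse-strand counts on genes. The labels call the libraries replicates and the methods of the study describe a treatment in triplicate, and *P* values measure the spread between these libraries. Same-numbered DMSO and S767 libraries deviated together from their group means, and a fit that takes the number into account, called the replicate block, is given beside the results whose calls it changes.

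The marker genes fitted the labelled cell type in part. Of 10 myeloid leukemia markers, 7 had at least 1 TPM (the transcripts-per-million unit, scaled by length) in every library, among them *CD33* at 88.6 to 96.8 TPM in DMSO and the transcription factor *SPI1* at 216 to 259 TPM, whereas *KIT* and *ANPEP* remained under 1 TPM. Of 11 erythroid markers only the erythropoietin receptor gene *EPOR* reached 1 TPM in every library, and the red cell regulator *GATA1*, the erythroid synthase *ALAS2* and the hemoglobin chaperone *AHSP* were listed at 0 in all 6. Of 4 lymphoid markers only *CD79A* did so. The summed levels overlapped between groups for the myeloid markers (531 to 584 TPM in DMSO, 522 to 588 in S767), the erythroid markers (4.48 to 4.99 and 4.66 to 5.24) and the lymphoid markers (6.82 to 11.4 and 6.91 to 11.4). The carriers were therefore measured in cells with almost no transcripts of these red cell markers other than *EPOR*. In bulk RNA of this kind, fewer cells of a type and less RNA per cell cannot be told apart.

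The levels of the carriers covered a wide range and were compared per transcript length, as TPM. *SLC25A3* (chr12:98593591-98606379, plus strand, as are all gene positions here from GENCODE 29 on GRCh38) measured 769.9, 768 and 816 TPM in DMSO replicates 1 to 3 and 777, 763 and 823 TPM in S767. It was by far the most abundant carrier, 6.11-fold above the next in the DMSO means, and stood at percentile 98.7 of the 13028 genes over 1 TPM in DMSO. *SLC25A39* (chr17:44319625-44324870, minus strand) measured 129, 132 and 125 TPM in DMSO and 131.5, 139 and 126 TPM in S767. *ABCB10* (chr1:229516582-229558695, minus strand), a partner of mitoferrin 1 in the inner membrane, measured 121, 126 and 119.7 TPM in DMSO and 123, 125 and 118 TPM in S767. The DMSO ranges of these neighbors in the order overlapped, while *SLC25A39* exceeded *ABCB10* within each of the 6 libraries.

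The iron importers were both expressed, with mitoferrin 1 the higher. *SLC25A37* (chr8:23528805-23575463, plus strand) measured 67.1, 65.8 and 72.0 TPM in DMSO and 67.5, 58.1 and 66.0 TPM in S767. *SLC25A28* (chr10:99610522-99620609, minus strand) measured 32.3, 32.1 and 30.8 TPM in DMSO and 32.6, 31.7 and 31.4 TPM in S767. Mitoferrin 1, usually described as the form of red cell precursors, was thus the more abundant form in every library of this myeloid line. The ratio of *SLC25A37* to *SLC25A28* was 2.15 ± 0.157 in DMSO (SD, *n* = 3) and 2.00 ± 0.150 in S767 (SD, *n* = 3). The ratios of the groups overlapped, and within pairs the TPM ratio went from 2.08 to 2.07, from 2.05 to 1.83 and from 2.33 to 2.11, lower in S767 in all 3, though by STAR counts per length in 2 of 3. The log2 difference of the groups was -0.10 (two-sided exact permutation test without regard to the pairs, *p* = 0.5, where 3 libraries against 3 allow no *p* below 0.1).

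Lower in the order, *TMEM14C* (chr6:10722915-10731129, plus strand) measured 42.9, 42.5 and 41.8 TPM in DMSO and 47.8, 46.9 and 46.6 TPM in S767. *ABCB8* (chr7:151028422-151047782, plus strand), which has been linked to the export of iron from mitochondria, measured 30.9, 27.6 and 28.6 TPM in DMSO and 32.0, 28.7 and 27.4 TPM in S767. *SLC25A38* (chr3:39383324-39397351, plus strand) measured 26.5, 23.7 and 25.5 TPM in DMSO and 26.2, 22.7 and 26.7 TPM in S767. *TMEM14C* was the one carrier whose 3 S767 values all exceeded its 3 DMSO values. In DMSO the ranges of *SLC25A28* and *ABCB8* overlapped, although *SLC25A28* was the higher within each library, and those of *ABCB8* and *SLC25A38* did not, whereas by STAR counts per effective length it was the latter pair that overlapped.

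*ABCB6* (chr2:219209766-219219017, minus strand), which encodes a porphyrin transporter found on the outer mitochondrial membrane and on other membranes, stood last. It measured 1.86, 0.65 and 1.25 TPM in DMSO and 1.45, 0.78 and 1.68 TPM in S767. Replicate 2 was the lowest library in both groups, and *SLC25A38*, next above it, exceeded *ABCB6* by 20.1-fold in the DMSO means of TPM but by 130-fold when STAR counts were divided by length. The order of the 9 means was the same in S767 as in DMSO, and the same again when the counts of the aligner STAR, which counts whole fragments per gene, were divided by the effective lengths of RSEM, the program that estimated the TPM values.

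**Figure D1:**
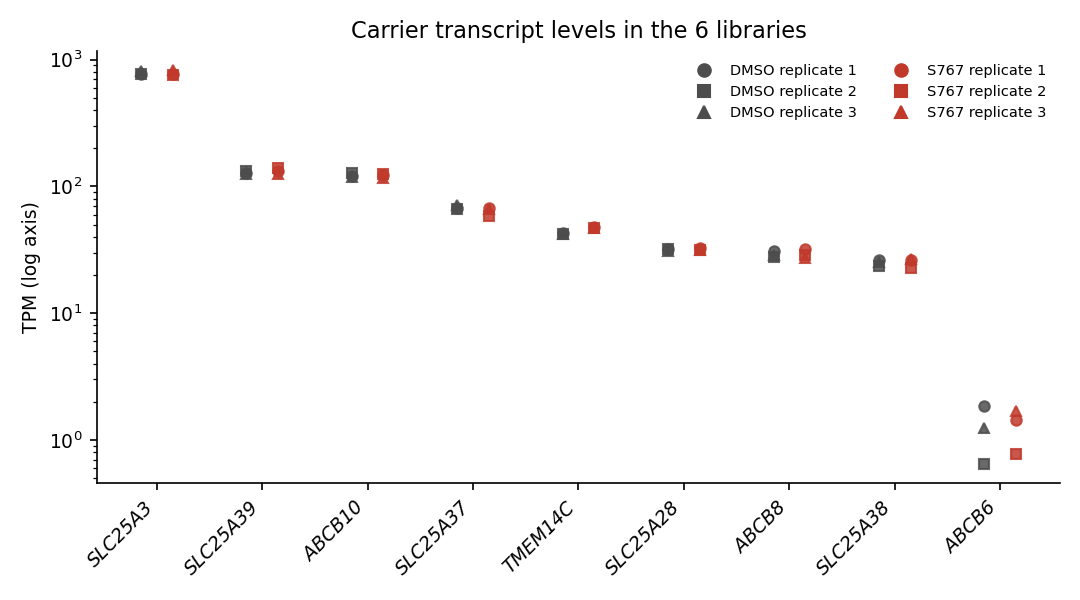
TPM (log axis) of the 9 carriers in each of the 3 DMSO and 3 S767 libraries, 1 point per library, ordered by mean level. *SLC25A3* sat between 763 and 823 TPM and *ABCB6* between 0.65 and 1.86 TPM, and the points of the groups overlapped for every carrier except *TMEM14C*.

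The comparison of S767 with DMSO asked whether the transcripts of these carriers differed after exposure to a compound studied for its action on metals. One carrier, *TMEM14C*, was higher in S767 by 12.3% (95% interval 4.54 to 20.7%), and the differences of the 7 others with ample counts were between -0.06 and 0.06 on the log2 scale. By edgeR's quasi-likelihood test 1 of 9 carriers had a *P* value under 0.05, a limit that 3.53% of the 20725 genes tested passed. With no true difference in any gene, 5% would be expected to pass it by chance. None of the 9 passed an adjusted p of 0.05 after Benjamini-Hochberg adjustment in this fit, and 0.00483% of all genes tested did. By DESeq2 or limma-voom without the block, 1 carrier again had an unadjusted *P* under 0.05 and none passed the adjusted limit. The median log2 fold change of the carriers was 0.02 and that of all genes tested was -0.00024. Of the 9 carriers 8 lay above 0, beside 49.8% of all genes tested, but for 6 of them the sign turned under at least 1 alternative, and those near 0 carry no direction.

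With the replicate block 3 carriers had a *P* value under 0.05, where 16.8% of all genes tested did, and 1 carrier passed the adjusted limit, where 3.23% did. The normalized counts-per-million (CPM) values of the groups did not overlap for 1 of 9 carriers, beside 9.21% of all genes tested. All 3 pairs of same-numbered libraries moved in 1 direction for 3 of 9 carriers, beside 37.8% of all genes tested. These shares of the carriers rest on few genes, and the last of them was below that of all genes.

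*TMEM14C* had 26.0, 26.2 and 24.98 CPM in DMSO and 28.6, 29.4 and 28.7 CPM in S767, from 3897 to 6816 counts per library. Every S767 library exceeded every DMSO library, and the pairs differed by 0.14, 0.17 and 0.20 on the log2 scale. Its log2 fold change was 0.17 (SE 0.05, 95% interval 0.06 to 0.27, edgeR adjusted p = 1), and by *P* value it ranked 69 among the genes tested. With the replicate block the fold change was the same and *TMEM14C* rose past the adjusted limit (SE 0.03, edgeR adjusted p = 0.0106). The exact permutation test of this gene alone gave *p* = 0.1, the smallest that 3 libraries against 3 allow. Its *P* value remained under 0.05 in all 23 alternatives, and its edgeR, limma or DESeq2 adjusted p, from 0.000193 to 1, passed the limit in 6 of them, which all had the block. Without the replicate 2 pair the blocked adjusted p was 0.264 in edgeR. Blocked fits without 1 pair rest on few libraries, so their adjusted p values, here and below, lean on the spread shared across genes. In these fits 25 to 1993 genes passed the adjusted limit, beside 670 with all pairs.

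*SLC25A39* had 132, 137 and 127 CPM in DMSO and 133, 149 and 132 CPM in S767. The S767 library was the higher of each pair, by 0.01, 0.12 and 0.06 on the log2 scale, while the groups overlapped. Its log2 fold change was 0.06 (SE 0.06, 95% interval -0.06 to 0.19, edgeR adjusted p = 1), and with the replicate block it had a *P* value under 0.05 but missed the adjusted limit (edgeR adjusted p = 0.222). Without the replicate 1 pair the blocked value was 0.09 with an edgeR adjusted p of 0.0146. Without the replicate 2 pair it was 0.03 with an adjusted p of 0.822. Both of these fits rest on few libraries. The difference of this glutathione importer was thus smallest in replicate 1 and largest in replicate 2, and without the S767 library of replicate 2 its unblocked log2 fold change was 0.01.

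*SLC25A37* was the only carrier with a negative log2 fold change. It had 191, 189 and 207 CPM in DMSO and 193, 177 and 194 CPM in S767. Replicates 2 and 3 were lower in S767 and replicate 1 was not. The log2 fold change was -0.06 (SE 0.05, 95% interval -0.18 to 0.06, edgeR adjusted p = 1), and with the replicate block it had a *P* value under 0.05 but missed the adjusted limit (edgeR adjusted p = 0.291). Without the replicate 1 pair the blocked value was -0.10 with an edgeR adjusted p of 0.00412. Without the replicate 2 pair it was -0.04 with an adjusted p of 0.801. Both of these fits rest on few libraries. Leaving out DMSO replicate 3 or S767 replicate 2 brought the unblocked value to -0.02.

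**Figure D2:**
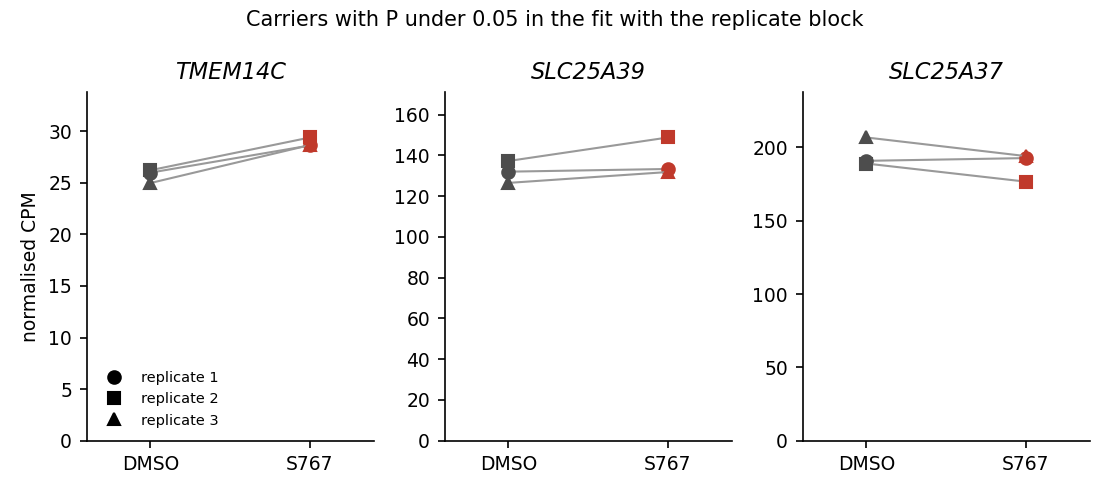
Normalized CPM of the 3 carriers with a *P* value under 0.05 in the fit with the replicate block, with a line joining the DMSO and S767 libraries of each replicate number and axes from 0. The lines rise in all 3 pairs for *TMEM14C* and *SLC25A39*, and fall in 2 of 3 for *SLC25A37*.

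For the remaining carriers with ample counts the data bounded the difference. *SLC25A28* averaged 26.1 ± 0.883 CPM in DMSO and 26.4 ± 0.902 CPM in S767 (SD, *n* = 3 each), a change of 0.988% with a 95% interval from -6.78 to 9.40%. *SLC25A38*, the glycine carrier, averaged 39.1 ± 2.27 and 39.5 ± 2.75 CPM, a change of 0.996% with an interval from -8.78 to 11.8%. *SLC25A3*, the copper and phosphate carrier, averaged 709.8 ± 18.7 and 724 ± 34.4 CPM, a change of 2.00% with an interval from -5.16 to 9.71%. In each the groups overlapped and the difference was smaller than the spread between libraries of 1 group.

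The other ABC transporters gave the same picture. *ABCB8* averaged 47.4 ± 2.74 CPM in DMSO and 47.9 ± 2.37 CPM in S767 (SD, *n* = 3 each), a change of 1.07% with a 95% interval from -7.55 to 10.5%. *ABCB10* averaged 345 ± 14.6 and 348 ± 14.2 CPM, a change of 1.07% with an interval from -6.13 to 8.83%. Both groups overlapped in each gene. Across the 7 carriers other than *ABCB6* and *TMEM14C*, no interval of the fit without the block reached below -11.6% or above 14.2%. The intervals with the replicate block were narrower. Their lowest bound was that of *SLC25A37* (log2 interval -0.1155 to -0.0006932), and their highest that of *SLC25A39* (0.008382 to 0.118). A *P* value that misses the limit does not show that the levels were equal.

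**Figure D3:**
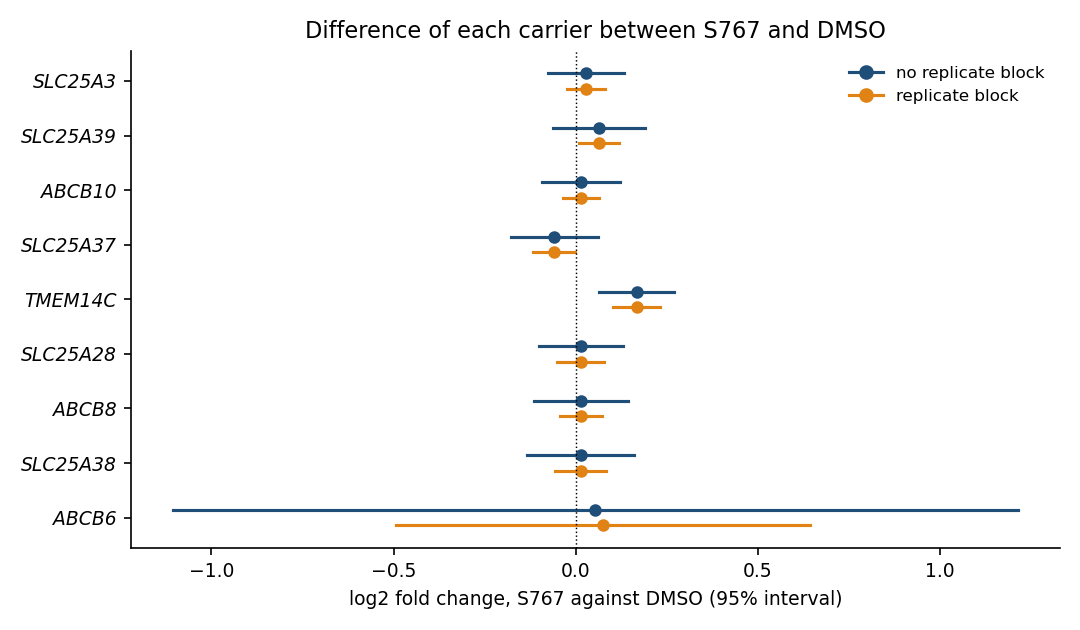
Log2 fold change of each carrier, S767 against DMSO, with its 95% interval from edgeR's quasi-likelihood fit without (blue) and with (orange) the replicate block. The interval of *TMEM14C* lay above 0 in both fits, and that of *ABCB6* reached from -1.11 to 1.21 without the block.

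*ABCB6* could not be measured well in these data. Its STAR counts were only 40, 10 and 56 in DMSO and 57, 11 and 38 in S767, while the RSEM expected counts were 275, 70.1 and 251 in DMSO and 282, 85.02 and 227 in S767. In GENCODE 29 a readthrough gene on the same strand, ENSG00000284820, shares 2864 of the 5234 exon bases of *ABCB6*, or 54.7%, and also overlaps the neighboring autophagy gene *ATG9A*. The counting in STAR leaves out a fragment that overlaps 2 genes, and RSEM divides such fragments between them. RSEM gave the readthrough gene 462, 172 and 482 expected counts in DMSO and 541, 158 and 390 in S767, so that the share of *ABCB6* itself is uncertain.

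The sum of both genes at this locus was 1.54 to 3.24 CPM of the RSEM expected counts in DMSO and 1.27 to 3.34 CPM in S767. Replicate 2 was thus lowest in both groups whichever count was used, and the groups overlapped. With 10 STAR counts the exact Poisson 95% interval of DMSO replicate 2 was 4.80 to 18.4 counts, which covers counting error only. The log2 fold change of *ABCB6* was 0.05 (SE 0.51, edgeR adjusted p = 1). The replicates varied beyond these counting intervals, and that spread and the shared exons limit the comparison of the groups.

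**Figure D4:**
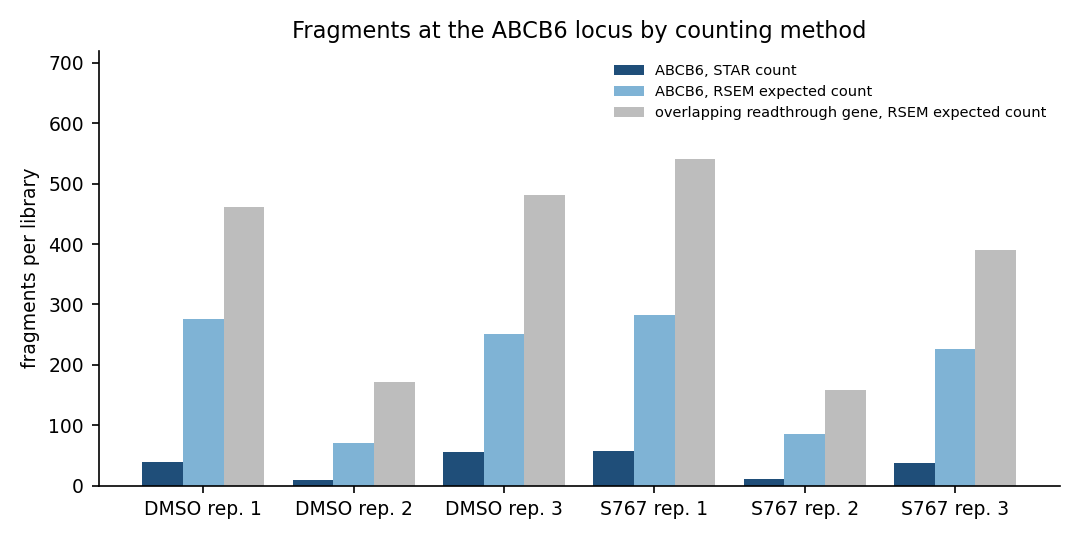
Fragments per library at the *ABCB6* locus, as STAR reverse-strand counts of *ABCB6* (dark blue), RSEM expected counts of *ABCB6* (light blue) and RSEM expected counts of the overlapping readthrough gene (gray). The STAR counts were 12.9 to 22.3% of the RSEM estimate of *ABCB6*, and both replicate 2 libraries stood lowest.

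No other carrier shared more than 2.22% of its exon bases with another gene in GENCODE 29. Pseudogenes named after *SLC25A38*, *SLC25A39*, *SLC25A3* and *ABCB10* held at most 18.2 counts on average, beside at least 8166 counts on average for these carriers. RSEM expected counts were 81.4 to 83.6% of the STAR counts for *SLC25A28* and 85.4 to 86.7% for *SLC25A37*, so the TPM levels of the mitoferrins depend on the counting more than those of *SLC25A3* (99.8 to 101%) or *TMEM14C* (99.4 to 101%).

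The promoters of 8 carriers were searched in the RefSeq windows of 250 bases before to 50 bases after the start on GRCh38.p14, on both strands, with *SLC25A37* not searched. The core of the metal response element (TGCACNC or TGCGCNC), to which the metal-sensing factor MTF1 is known to bind, occurred in 3 of 8 windows, those of *SLC25A38*, *ABCB10* and *TMEM14C*, beside 29.6% of all 35116 windows and 36.4% of those of the genes tested. *ABCB10* held 3 such matches, 1 of them just after the start. The stretches below hold the matches before the RefSeq start and are shown because *TMEM14C* is among these carriers. The matches are in capitals, read 5′ to 3′ on the strand of the gene, on which these appear as the reverse complement of the letters above. The stretches lie at chr3:39383251-39383277 (plus strand), chr1:229558792-229558821 (minus strand) and chr6:10723012-10723038 (plus strand). Those of *SLC25A38* and *ABCB10* also precede the GENCODE 29 start of the gene. That of *TMEM14C* lies after the GENCODE 29 start, within the gene position given above, since the RefSeq start is further downstream.
SLC25A38: attaagttctGGGTGCAaggaagcgcg
ABCB10: ggggcGGGCGCAgcccgaGGGTGCAggcac
TMEM14C: gctgaatgcaGGGCGCAtgctgctact

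Of these 3 carriers, *TMEM14C* had a *P* value under 0.05 and the others had log2 fold changes of 0.01 and 0.02. The GATA site of red cell genes (GATAA or GATAG after an A or a T) occurred in 0 of 8 windows, beside 16.8% of the windows of the genes tested. The core of the antioxidant response element (TGACNNNGC) occurred in the windows of *SLC25A39* and *ABCB6*, beside 14.6%, and the core of the hypoxia response element (ACGTG or GCGTG, which share bases where they overlap in the palindrome CACGTG) in 7 of 8, beside 59.3%. The site of the respiratory factor NRF1 occurred in 0 of 8 windows, beside 2.48%. The windows of the carriers held 51.3 to 77.3% G and C, with a median of 64.3% over the genes tested. A match is a description of the letters, not a bound site.

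The genes that work beside the carriers were examined as lists. Of all genes tested, 3.53% had a *P* value under 0.05 without the block and 16.8% with it. The adjusted limit was passed by 0.00483% without the block and 3.23% with it. The counts of each list stand beside these shares, rest on few genes and were not tested as sets. Of the 9 enzymes of heme synthesis 8 could be tested, *ALAS2* being listed at 0 TPM. *ALAS1*, which makes the first precursor from the glycine that *SLC25A38* imports, was the only one with a *P* value under 0.05 in the fit without the block (log2 fold change 0.84, edgeR adjusted p = 0.00435), and the others lay between -0.06 and 0.09. With the block 3 enzymes had such a *P* value, *ALAS1*, *FECH* and *CPOX*, and *ALAS1* alone passed the adjusted limit. Ferrochelatase, *FECH*, which inserts the imported iron into the porphyrin, averaged 43.1 ± 1.02 CPM in DMSO and 45.8 ± 2.74 CPM in S767 (log2 fold change 0.09, edgeR adjusted p = 1, blocked adjusted p = 0.162). The median log2 fold change of the 8 enzymes was 0.04.

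Of 14 genes for the delivery of copper to cytochrome c oxidase, including the chaperone *COX17* and the assembly factors *SCO1* and *SCO2*, none had a *P* value under 0.05 in edgeR, and 2 had with the replicate block, neither past the adjusted limit. Their log2 fold changes lay between -0.07 and 0.14, with a median of 0.00222, beside 0.03 for the copper carrier *SLC25A3*. The highest, of *COX16*, rests on 0.616 ± 0.0223 CPM of STAR counts in DMSO and 0.680 ± 0.0716 CPM in S767, whereas RSEM gave it 21.8 ± 0.907 and 21.6 ± 0.719 TPM (SD, *n* = 3 each), lower in S767.

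Of 12 genes for glutathione supply and the turnover of *SLC25A39*, 1 had a *P* value under 0.05 and was lower in S767, and with the block 5 had, of which 1 passed the adjusted limit. This was *GCLM*, the modifier subunit of the ligase that makes the first bond of glutathione, with 51.4, 41.6 and 35.6 CPM in DMSO and 37.5, 31.3 and 26.7 CPM in S767. The groups overlapped, since the libraries of each number ran in parallel, and S767 was the lower of each pair. Its log2 fold change was -0.43 (SE 0.15, 95% interval -0.77 to -0.09, edgeR adjusted p = 1), and with the replicate block it fell past the adjusted limit (SE 0.03, edgeR adjusted p = 1.01e-05). Without DMSO replicate 1 or S767 replicate 3 the unblocked value was -0.28 or -0.32, and the edgeR *P* value no longer passed 0.05. The protease subunit *AFG3L2*, which is known to degrade *SLC25A39* protein, had a log2 fold change of -0.07 and was lower in S767 in each pair. With the block its *P* value was under 0.05, but it missed the adjusted limit (edgeR adjusted p = 0.129). *GPX1*, *GSR* and *GSS* also had such a *P* value with the block and were higher in S767. Their log2 fold changes were 0.11, 0.08 and 0.07, and they missed the adjusted limit (edgeR adjusted p = 0.102, 0.119 and 0.283). The closest relative of *SLC25A39*, *SLC25A40*, had a log2 fold change of -0.01.

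Of 11 relatives and partners of the ABC carriers and *TMEM14C*, 1 had a *P* value under 0.05 and was higher in S767, and with the block 3 had, of which 1 passed the adjusted limit. This was *FAM210B*, a mitochondrial protein that helps iron reach ferrochelatase in red cell precursors, with 21.0, 24.1 and 20.7 CPM in DMSO and 24.0, 27.1 and 24.2 CPM in S767. S767 was the higher of each pair, and the lowest S767 library lay just below the highest DMSO library. Its log2 fold change was 0.20 (SE 0.08, 95% interval 0.02 to 0.37, edgeR adjusted p = 1), and with the replicate block it rose past the adjusted limit (edgeR adjusted p = 0.00593). Without DMSO replicate 1, DMSO replicate 3 or S767 replicate 2 its unblocked *P* value in edgeR no longer passed 0.05, with log2 fold changes of 0.17, 0.16 and 0.14, and without the replicate 2 pair the blocked adjusted p was 0.156. *TMEM14B*, the neighbor and relative of *TMEM14C*, had a log2 fold change of 0.09 (95% interval -0.02 to 0.20). With the block its *P* value was under 0.05, but it missed the adjusted limit (edgeR adjusted p = 0.173).

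**Figure D5:**
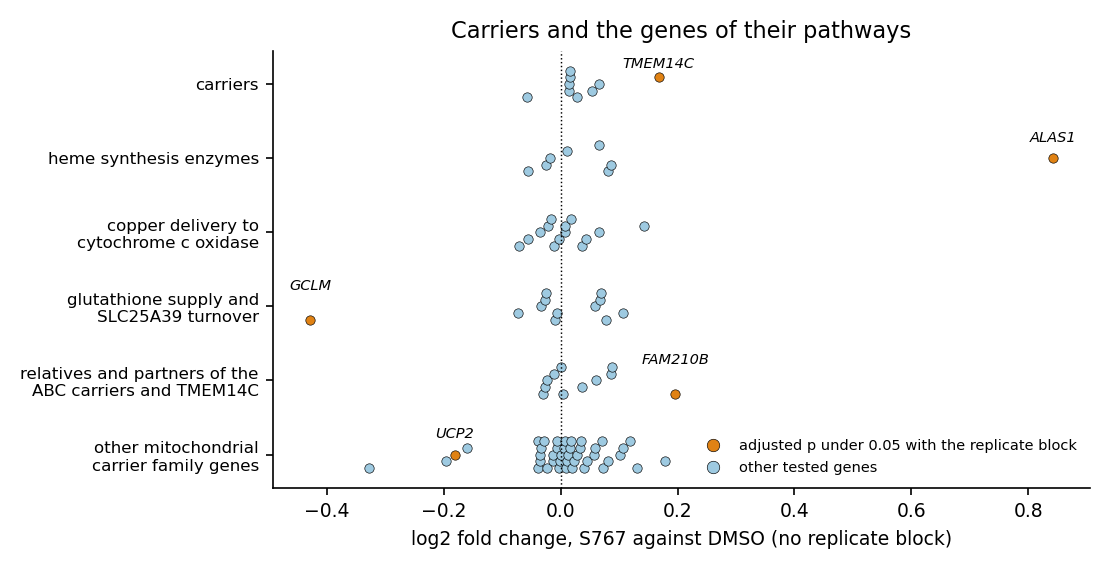
Log2 fold change, S767 against DMSO without the replicate block, of the tested carriers and of the genes of 5 lists, 1 point per gene, with points shifted vertically for legibility. Orange points passed an adjusted p of 0.05 with the replicate block: *TMEM14C*, *ALAS1*, *GCLM*, *FAM210B* and *UCP2*.

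Of 48 other genes of the mitochondrial carrier family, to which the SLC25 members belong, 42 could be tested, and 1 was higher and 1 lower at a *P* value under 0.05. With the block 6 had such a *P* value, and 1 of them, *UCP2*, passed the adjusted limit. Their median log2 fold change was 0.01, beside 0.02 for the 9 carriers. *UCP2*, an inner membrane carrier of the uncoupling protein group, had 77.9, 81.6 and 76.9 CPM in DMSO and 67.0, 75.1 and 66.3 CPM in S767. All S767 libraries were below all DMSO libraries, with a log2 fold change of -0.18 (SE 0.06, edgeR adjusted p = 1), and with the replicate block *UCP2* fell past the adjusted limit (edgeR adjusted p = 0.00405). Without the replicate 2 pair the blocked adjusted p of *UCP2* in edgeR was 0.0564.

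*SLC25A4*, one of the ADP/ATP exchangers, had 7.93, 7.62 and 8.02 CPM in DMSO and 8.82, 9.14 and 8.73 CPM in S767. The groups did not overlap and the log2 fold change was 0.18 (SE 0.07, edgeR adjusted p = 1, blocked adjusted p = 0.0739), but the *P* value missed 0.05 in 8 of 23 alternatives. Among family members over 1 TPM the next highest were *SLC25A27* (log2 fold change 0.12, 95% interval -0.15 to 0.38) and *SLC25A30* (0.11, interval -0.08 to 0.29). The next lowest were *SLC25A32* (-0.16, interval -0.35 to 0.02) and *SLC25A25* (-0.04, interval -0.30 to 0.22). With the block *SLC25A30* and *SLC25A32* had a *P* value under 0.05 but missed the adjusted limit (edgeR adjusted p = 0.139 and 0.104). *SLC25A32*, a folate carrier, had 1341 to 2165 STAR counts but 15060 to 24724 RSEM expected counts. With the RSEM counts its log2 fold change was -0.10, with a *P* value under 0.05. With these counts and the block it passed the adjusted limit (edgeR adjusted p = 0.0472). It also did with STAR counts and the block without the replicate 1 pair (-0.21, edgeR adjusted p = 0.0186), a fit on few libraries. *SLC25A6*, another ADP/ATP exchanger, had 0 STAR counts in all 6 libraries and was not tested, although RSEM gave it 302 ± 13.9 TPM in DMSO and 292 ± 16.7 TPM in S767 (SD, *n* = 3 each).

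The genes whose pattern over the 6 libraries was most like that of *TMEM14C*, by the root mean square difference of centered log2 CPM among 9600 genes, were *SUSD1* (0.0163), *MEX3A* (0.0182) and *GSDMD* (0.0194), where the median gene had 0.104. *SUSD1* had 28.9, 28.97 and 27.3 CPM in DMSO and 31.5, 32.1 and 30.8 CPM in S767. *GSDMD*, which encodes the pore-forming gasdermin D, had 43.2, 44.0 and 41.7 CPM in DMSO and 46.3, 49.2 and 48.3 CPM in S767. Each shared the separation of the groups by which it was chosen, and these levels are a description.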

How the data were processed

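Polyadenylated RNA of OCI-AML5 cells was sequenced from stranded libraries. Per the labels and the methods of the study, the authors trimmed the reads, aligned them with STAR 2.7.1a to GRCh38 and deposited 1 table of raw counts per gene for each library (without regard to strand, forward and reverse) and 1 table of RSEM expected counts and TPM values. The submitters' processing notes name RSEM 1.2.28, while the methods name a later version, and the annotation release is not given in the sources used here. Since 6.44 to 6.58% of the strand-assigned counts were forward, the reverse-strand counts were used, without the 4 summary lines. Deposited FPKM values and posterior estimates were not used.

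Samples were grouped by the treatment in their labels. Genes were tested with edgeR 4.0.16 in R 4.3.3 (TMM factors, filterByExpr with a minimum count of 10, quasi-likelihood test, treatment as the only term), with Benjamini-Hochberg adjustment over all 20725 genes tested. CPM values are normalized by TMM. A *P* value under 0.05, which the statistical methods of the study call significant, and an adjusted p under 0.05 were both used, without the minimum fold change that the study added for its pathway analysis. Other settings tried were DESeq2 1.42.0, voom in limma 3.58.1, scaling by RLE or by library size only, other minimum counts, unstranded counts, rounded RSEM expected counts, the replicate block, log2(TPM + 1) and log2(TPM + 0.1), and leaving out each library. The blocked fits without 1 pair, with RSEM expected counts or with library size alone were chosen after seeing the data.

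Deviations of same-numbered libraries from their group means correlated at 0.754 to 0.872 over 6191 genes. The numbers thus pair the libraries, though no source states what they share. Those of other numbers correlated at -0.623 to -0.241, but subtracting the group means pulls these values negative once same-numbered libraries agree. No 2 libraries agreed within sampling noise (chi-square per gene 15.2 to 64.3). On simulated counts of this comparison over 20725 genes, drawn with the replicate effects of the data, the fit without a block recovered 95% of 200 genes changed by 1 on the log2 scale, with 0% of its calls false, and the blocked fit recovered 100%, with 6.54% false. Changes as small as those of the carriers were not simulated, so these shares do not measure how well such changes would be found.

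Gene positions came from GENCODE 29, of which 2 of the 9 carriers had the same identifier version as the files, and promoter sequences from RefSeq on GRCh38.p14. Named genes were all carriers, members of the first 4 lists with a *P* value under 0.05 or past the adjusted limit with the block, the 3 highest and 3 lowest of the carrier family over 1 TPM, and the 3 genes nearest to *TMEM14C* in pattern. *CPOX*, *COX16*, *COX17*, *SCO1*, *SCO2*, *FECH*, *AFG3L2*, *GPX1*, *GSR*, *GSS*, *SLC25A40*, *TMEM14B* and *SLC25A6* were named beyond this rule after their values were seen. The carriers and lists were chosen with earlier results of these data known.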

Additional observations from a re-analysis of the deposited data

How the results depend on the processing

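*TMEM14C*, *SLC25A37* and *SLC25A39* kept their direction in all 23 alternatives. With the replicate block 3 carriers had a *P* value under 0.05, 1 passed the adjusted limit and 670 genes did, and the calls of the other 6 carriers were the same. With limma-voom and the block these counts were 3, 1 and 609, with RSEM expected counts and the block 3, 1 and 702, and with the block on library sizes alone 3, 1 and 617. The blocked counts past the adjusted limit were 3 carriers and 1993 genes without the replicate 1 pair (3 carriers with *P* under 0.05, median 0.0334). They were 0 carriers and 25 genes without the replicate 2 pair, and 1 carrier and 618 genes without the replicate 3 pair. These fits rest on few libraries, and their counts are uncertain. Without a block, 24 genes passed with DESeq2, 9 with no limit on low counts and 0 with log2(TPM + 1) or log2(TPM + 0.1), beside 1062 and 1077 genes with *P* under 0.05. Leaving out single libraries gave medians of the carriers from 0.0161 to 0.0556.

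Signs turned only for values near 0 or with few counts, with *P* far from the limit. *ABCB6* was -0.0193 with limma-voom, *SLC25A38* -0.00466 and -0.00491 and *ABCB10* -0.00713 and -0.00718 with log2(TPM + 1) and log2(TPM + 0.1). Without 1 library the values ranged from -0.33 to 0.42 for *ABCB6*, -0.0349 to 0.0659 for *SLC25A38*, -0.0186 to 0.0476 for *ABCB10*, -0.0229 to 0.0642 for *ABCB8*, -0.0144 to 0.0321 for *SLC25A28*, -0.00688 to 0.0630 for *SLC25A3* and -0.14 to 0.0591 for *SLC25A25*. In blocked fits *ABCB6* was -0.16 without the replicate 1 pair, *ABCB8* -0.0102 without the replicate 2 pair, and *SLC25A28* -0.000853, *SLC25A38* -0.0331 and *SLC25A25* 0.00414 without the replicate 3 pair. The cause was not tested. Other scalings moved the median of all genes by at most 0.00347 (log2). Low counts, replicate spread and shared exons go together at *ABCB6*, and their parts were not tested.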
